A study of Mus musculus with 26 samples.

Results

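The early growth response (Egr) genes Egr1, Egr2, Egr3 and Egr4 and the corepressor genes Nab1 and Nab2 were followed in mouse striatum across models of Huntington's disease. The members were chosen by gene symbol, with earlier results of these data known, and all 6 were found in each of the 5 tables, out of 14833 genes listed in any table and 12556 listed in every table. The 26 RNA-seq libraries of the study form 9 groups. R6/1 mice, a transgenic line expressing the first exon of mutant human huntingtin, and wild-type mice were sampled at 4 weeks and at 8 weeks, with 3 libraries in each group. CHL2 mice, the other model, and their wild types were sampled at 1 year with 3 libraries in each group. At 10 weeks, wild-type and R6/1 mice had received a control adeno-associated virus (AAV), with 2 libraries in each group, and R6/1 mice had received an AAV carrying Elk-1, with 4 libraries. The promoters that drive the transgene and the AAV cargo, the fraction of cells reached by the AAV and the pooling of animals are not stated in the labels. The tables name the control vector mCherry, so mCherry-AAV was shared by both groups of the 10-week genotype comparison.

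The Egr proteins are zinc finger transcription factors that bind GC-rich DNA and are made within minutes of synaptic activity, growth factors or stress. Their transcription is switched on by the ERK kinases through serum response elements, where SRF sits on a CArG box beside a ternary complex factor such as Elk-1, and by CREB at cyclic AMP response elements. Nab1 and Nab2 bind Egr1, Egr2 and Egr3 and repress their targets by recruiting chromatin remodellers, and Nab2 is itself induced by Egr proteins. In striatum Egr1, also called Zif268, is a standard marker of dopamine- and glutamate-driven activity of spiny projection neurons.

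Each of the authors' deposited tables gives 1 FPKM value per group and gene (fragments scaled to transcript length and to the size of the library), so the value of each library, its depth and the spread between libraries are not known here. A gene is said to have fallen or risen where the authors' deposited table gave it a q below 0.05, and a log2 fold change is the authors' own, model over control. The projection neuron markers Ppp1r1b, Drd1a, Drd2, Adora2a, Penk, Tac1, Pde10a, Rgs9 and Scn4b were all listed above 0 in every group, with a summed FPKM from 1042 to 2983. Fewer cells of a type and less RNA per cell cannot be told apart in these bulk samples. The tables were normalized separately, so levels are compared within a table and only set side by side across tables. Whether the libraries of a group came from separate animals is not stated, so the spread behind the deposited p-values, which is that of these libraries alone, may be technical.

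Egr1 was the most abundant member in all 9 groups and Egr2 the least abundant Egr gene. In wild-type striatum Egr1 stood at a group FPKM of 129 at 4 weeks, 151 at 8 weeks, 99.3 at 1 year and 173 at 10 weeks with control AAV, per the authors' deposited tables. Egr3 stood at 35.5, 51.5, 36.9 and 25.1, Egr4 at 28.5, 32.8, 29.8 and 39.5, and Egr2 at 6.36, 8.92, 4.998 and 7.23 in the same groups of the authors' deposited tables. Egr3 thus lay above Egr4 in the untreated wild-type groups and below it in the control-AAV group, with no spread against which to weigh this. Nab2, at 18.8, 21.1, 21.9 and 24.3, lay below Egr4 and above Egr2 in each of these groups, per the authors' deposited tables. Nab1, at 6.18, 6.98, 6.86 and 6.59, lay below Egr2 in all of them but the wild type at 1 year, per the authors' deposited tables. Across the 4 wild-type groups the highest level exceeded the lowest by 2.05-fold for Egr3, 1.79-fold for Egr2, 1.74-fold for Egr1, 1.39-fold for Egr4, 1.29-fold for Nab2 and 1.13-fold for Nab1. These ratios run across separately normalized tables and ages and have no test.

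**Figure D1:**
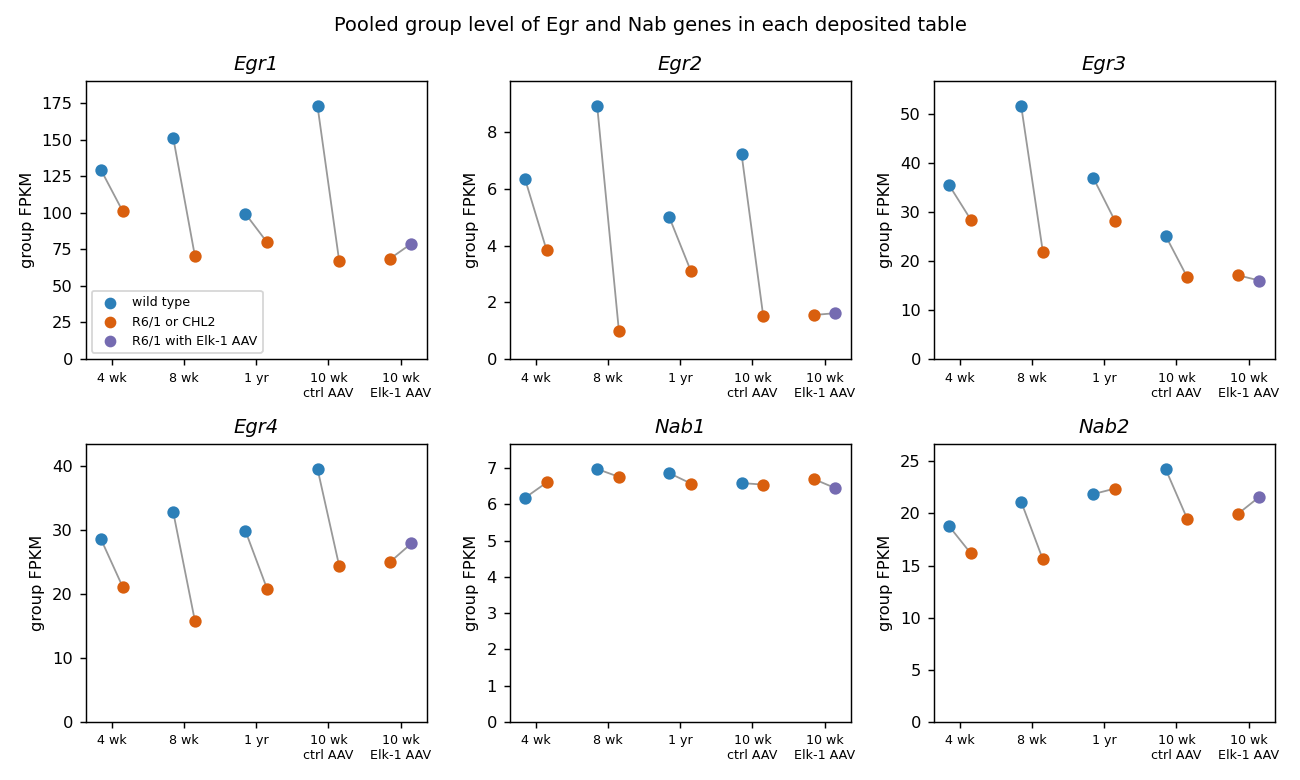
Pooled group FPKM (y axis, from 0) of the 6 genes in each deposited table (x axis), with wild type in blue, R6/1 or CHL2 in orange and R6/1 with Elk-1 AAV in purple; lines join the groups of a table and there are no error bars because the files hold 1 value per group. All 4 Egr genes sit lower in the model in the first 4 tables, while Nab1 stays between 6.18 and 6.98 in all of them.

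All 4 Egr genes had lower values than wild type in each of the 4 model comparisons, and neither corepressor passed the threshold in any. At 4 weeks, 1 of the 6 members, Egr2, fell, where 0.468% of all 14539 genes were called per the authors' deposited table and 0.193% were called lower. At 8 weeks all 4 Egr genes fell, where 6.12% of 14320 genes were called and 5.34% were called lower. In CHL2 at 1 year Egr2, Egr3 and Egr4 fell, where 3.65% of 14402 genes were called and 1.97% were called lower. Between the control-AAV groups at 10 weeks Egr1 and Egr2 fell, where 3.24% of 12980 genes were called and 2.51% were called lower. No member rose in any of these comparisons, and Nab1 at 4 weeks and Nab2 in CHL2 were the members with a higher value in the model.

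The 4 Egr genes had a median log2 fold change of -0.40 at 4 weeks, -1.17 at 8 weeks, -0.46 in CHL2 and -1.03 at 10 weeks, per the authors' deposited tables, while the median of all genes lay between 0.0013 and 0.0163. Summed over the 4 genes, FPKM went from 199 to 154 at 4 weeks, from 244 to 109 at 8 weeks, from 171 to 132 in CHL2 and from 245 to 109 between the control-AAV groups. The model thus held 77.4%, 44.7%, 77.1% and 44.8% of the wild-type sum, a sum in which Egr1 made up between 58.1% and 70.6% of the wild-type value. Whether the changes differed between ages or models was not tested.

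**Figure D2:**
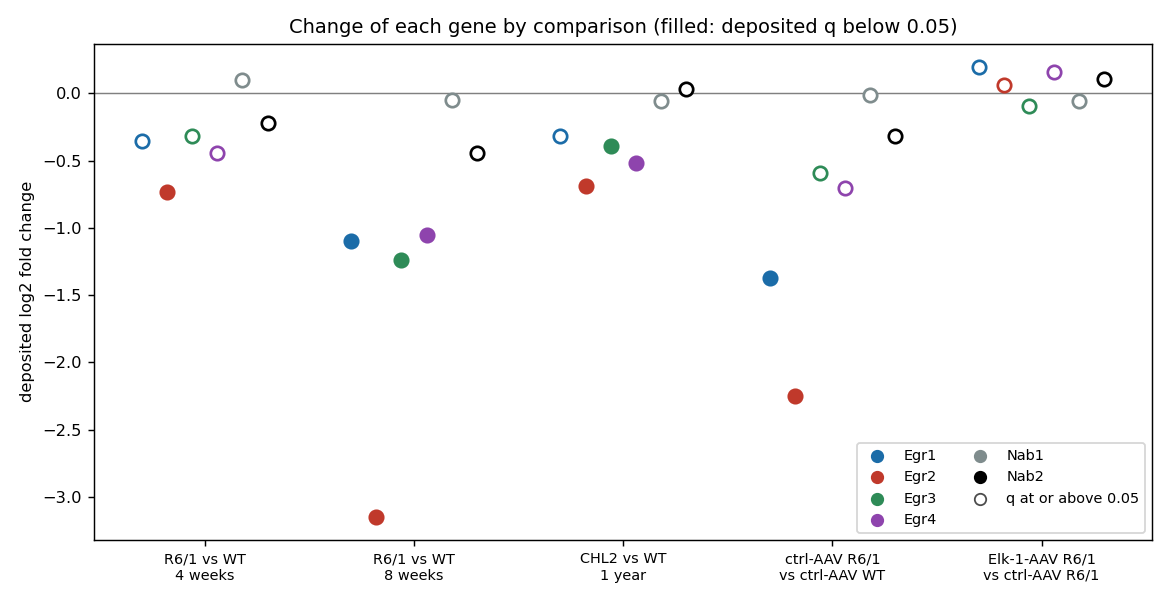
Deposited log2 fold change (y axis) of each gene in the 5 comparisons (x axis); filled circles have a deposited q below 0.05 and open circles do not. Egr2 is the lowest point in each of the 4 model comparisons, at -0.73, -3.15, -0.69 and -2.25, and all circles are open under Elk-1 AAV.

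Egr2, also called Krox-20, is a factor of hindbrain patterning and myelination that neurons also induce with activity. It was the member with the largest change in every model comparison. In the authors' deposited tables it went from 6.36 to 3.83 at 4 weeks (60.3% of wild type) and from 8.92 to 1.01 at 8 weeks (11.3%). In CHL2 it went from 4.998 to 3.09 (61.9%), and from 7.23 to 1.52 (21.0%) between the control-AAV groups, per the authors' deposited tables. It passed in all 4 comparisons, with q values of 0.0145, 0.00160, 0.00750 and 0.00312, per the authors' deposited tables. Among genes whose mean FPKM was at least 1, its deposited log2 fold change ranked 27 from the lowest of 13201 at 4 weeks, 3 of 13102 at 8 weeks, 127 of 13339 in CHL2 and 35 of 12870 at 10 weeks. The gene lies on mm9 chromosome 10 (67000616 to 67004936 as listed), and its first GENCODE transcript has 2 exons and 2965 bases. Its mean level over both groups stood above 26.3%, 25.7%, 20.8% and 22.7% of expressed genes in the 4 model tables and above 2.83% in the Elk-1 table, where both groups are R6/1. In R6/1 alone Egr2 stood above 8.79% of all listed genes at 8 weeks and 4.92% at 10 weeks with control AAV, so these model values are low.

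The bases before the start sites of Egr2, Egr4 and Nab1 are printed here because each holds a match to the motifs searched, which Nab2 does not. A serum response motif lies in Egr2 alone and Egr sites in Nab1 alone, while each holds a cyclic AMP motif. The printed stretches are the 250 bases before the start in RefSeq's GRCm38.p6 promoter table. They run 5′ to 3′ on the strand of the gene, with capitals at motif matches. Windows of Egr1 and Egr3 are not analysed here, and of 5 windows listed for Egr2 the one at its first GENCODE start was used. The Egr2 stretch is chr10:67537619-67537868 on the plus strand, that of Egr4 is chr6:85513590-85513839 on the minus strand and that of Nab1 is chr1:52500449-52500698 on the minus strand.
Egr2: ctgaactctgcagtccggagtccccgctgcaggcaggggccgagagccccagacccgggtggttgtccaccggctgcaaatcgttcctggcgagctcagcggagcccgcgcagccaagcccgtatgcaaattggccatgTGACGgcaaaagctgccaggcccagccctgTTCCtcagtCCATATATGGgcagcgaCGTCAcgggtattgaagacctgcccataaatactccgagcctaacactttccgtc
Egr4: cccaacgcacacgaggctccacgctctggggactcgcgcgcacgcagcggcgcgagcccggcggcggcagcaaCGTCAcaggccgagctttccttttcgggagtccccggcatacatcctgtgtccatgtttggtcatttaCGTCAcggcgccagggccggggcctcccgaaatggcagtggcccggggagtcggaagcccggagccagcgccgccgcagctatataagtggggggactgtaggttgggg
Nab1: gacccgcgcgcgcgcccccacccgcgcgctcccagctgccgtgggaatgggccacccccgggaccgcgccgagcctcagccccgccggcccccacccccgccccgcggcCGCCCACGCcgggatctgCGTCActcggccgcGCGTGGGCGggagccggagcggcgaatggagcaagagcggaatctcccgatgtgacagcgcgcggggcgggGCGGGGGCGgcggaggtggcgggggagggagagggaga

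Searched on both strands over the window of 300 bases (250 before and 50 after the start), the Egr2 promoter held a CArG box, the SRF site (CC, 6 bases of A or T, GG), at bases -72 to -63 from the start. A GGAA core of ETS factors such as Elk-1 lay within 30 bases of it, at -81 to -78, and TGACG sites, the core of the cyclic AMP response element, at -111 to -107 and -55 to -51. Of 32851 promoter windows in the table, 1.63% held a CArG box, 0.834% one with a GGAA core that near, and 20.8% the TGACG site. Egr4 held TGACG sites at -177 to -173 and -109 to -105 and no CArG box in this window. Nab1 held the Egr site GCGTGGGCG at -141 to -133 and -109 to -101, found in 0.612% of windows, its variant GCGGGGGCG at -38 to -30, found in 2.91%, and 1 TGACG site at -123 to -119. The bases before the start were 80.8% G or C in Nab1, against a median of 52.4% over all windows. These shares were not matched for that content, so they do not show how rare such GC-rich matches are in windows like that of Nab1. Nab2 held none of the 8 motifs searched, and CCGGAA, TGACGTCA and TATAAA matched in none of the 4 windows. The RefSeq start used for Nab1 lies 231 bases from that of its first GENCODE transcript, against 0 for Egr2 and Egr4 and 7 for Nab2. A match describes these letters and does not show binding, which these data do not measure.

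**Figure D3:**
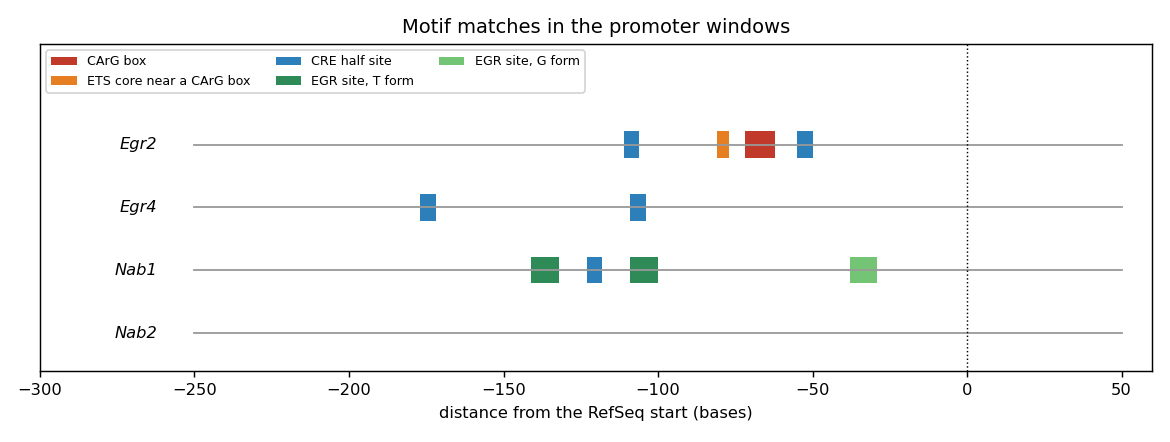
Motif matches (coloured blocks) in the promoter windows of Egr2, Egr4, Nab1 and Nab2 by distance from the RefSeq start (x axis, in bases). The CArG box of Egr2, at bases -72 to -63, lies between an ETS core and a TGACG site, and the Nab2 line carries no block.

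Egr4, a relative without the domain through which Nab proteins bind the other Egr factors, lies on mm9 chromosome 6 (85461115 to 85463536 as listed). In the authors' deposited tables its group FPKM went from 28.5 to 21.1 at 4 weeks (73.9% of wild type, q = 0.0512) and from 32.8 to 15.8 at 8 weeks (48.2%, q = 0.00160). In CHL2 it went from 29.8 to 20.8 (69.7%, q = 0.00539) and between the control-AAV groups from 39.5 to 24.3 (61.6%, q = 0.0610), per the authors' deposited tables. It thus fell at 8 weeks and in CHL2, and lay just outside the threshold at 4 weeks (p = 0.00025) and at 10 weeks (p = 0.0021), per the authors' deposited tables. At 4 weeks the adjustment over genes whose mean FPKM was at least 1 brought Egr4 under the threshold.

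Egr3, which acts with Egr1 in learning and is needed for muscle spindles, lies on mm9 chromosome 14 (70477251 to 70479964 as listed). Its group FPKM went from 35.5 to 28.4 at 4 weeks (80.2% of wild type, q = 0.438) and from 51.5 to 21.8 at 8 weeks (42.4%, q = 0.00160), per the authors' deposited tables. In CHL2 it went from 36.9 to 28.1 (76.3%, q = 0.0476) and between the control-AAV groups from 25.1 to 16.7 (66.4%, q = 0.385), per the authors' deposited tables. Egr3 fell at 8 weeks and, by a small margin, in CHL2. Its wild-type level was lowest in the control-AAV group, and its log2 fold change there, -0.59, was the smallest of the 4 Egr genes in that authors' deposited table.

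Egr1 lies on mm9 chromosome 18 (35020860 to 35024610 as listed), and its first GENCODE transcript has 2 exons and 4484 bases. Its group FPKM went from 129 to 101 at 4 weeks (78.2% of wild type, log2 fold change -0.35, q = 0.249) and from 151 to 70.6 at 8 weeks (46.7%, -1.10, q = 0.00160), per the authors' deposited tables. In CHL2 it went from 99.3 to 79.8 (80.3%, -0.32, q = 0.110), and between the control-AAV groups from 173 to 66.9 (38.7%, -1.37, q = 0.00312), per the authors' deposited tables. Egr1 fell at 8 weeks and at 10 weeks, and at 4 weeks and in CHL2 its lower values did not pass. Set side by side, the R6/1 values at 8 and 10 weeks were 70.6 and 66.9 and the wild-type values 151 and 173, per the authors' deposited tables. The tables were normalized separately and differ in age and AAV, and these levels were not tested against each other.

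The order of the Egr genes by size of change was not the same in the 4 comparisons. Leaving Egr2 aside, the log2 fold changes of Egr1, Egr3 and Egr4 spanned 0.12 at 4 weeks, 0.19 at 8 weeks, 0.21 in CHL2 and 0.78 at 10 weeks, per the authors' deposited tables. At 10 weeks the span was set by Egr1, which had a change of -1.37 against -0.70 for Egr4 and -0.59 for Egr3, per the authors' deposited table. Egr2 made up 3.65% of the summed Egr FPKM in wild type and 0.920% in R6/1 at 8 weeks, and 2.96% and 1.39% at 10 weeks. Differences between members of 1 table were not tested.

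The corepressors did not pass the threshold in any comparison. Nab1, on mm9 chromosome 1 (52512692 to 52557292 as listed), had group FPKM values of 6.18 and 6.60 at 4 weeks, 6.98 and 6.76 at 8 weeks, 6.86 and 6.58 in CHL2 and 6.59 and 6.55 at 10 weeks, wild type first, per the authors' deposited tables (q from 0.937 to 0.999). Its model values lay between 95.8% and 107% of wild type. Nab2, on mm9 chromosome 10 (127080041 to 127103759 as listed), had values of 18.8 and 16.2 at 4 weeks, 21.1 and 15.6 at 8 weeks, 21.9 and 22.4 in CHL2 and 24.3 and 19.5 at 10 weeks, per the authors' deposited tables. The 8-week difference of Nab2, a log2 fold change of -0.44 with p = 0.00575 and q = 0.0803, per the authors' deposited table, was the nearest to the threshold. The sign of the Nab1 value at 8 weeks, in CHL2 and at 10 weeks turned when small RNA rows were left out of the scaling.

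Nab2 is listed at the same position as Stat6, and in the GENCODE annotation these genes lie on opposite strands and overlap by 40 bases at their ends. The strandedness of the counting is not given in the sources used here, so reads in the overlap may count for either. Stat6 stood at 4.28 in wild type and 4.42 in R6/1 at 8 weeks (q = 0.997) and was not called in any of the authors' deposited tables. Summed Egr FPKM per summed Nab FPKM went from 7.99 to 6.78 at 4 weeks, 8.70 to 4.89 at 8 weeks, 5.95 to 4.55 in CHL2 and 7.93 to 4.21 at 10 weeks. These ratios are of transcript levels per length and have no test.

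**Figure D4:**
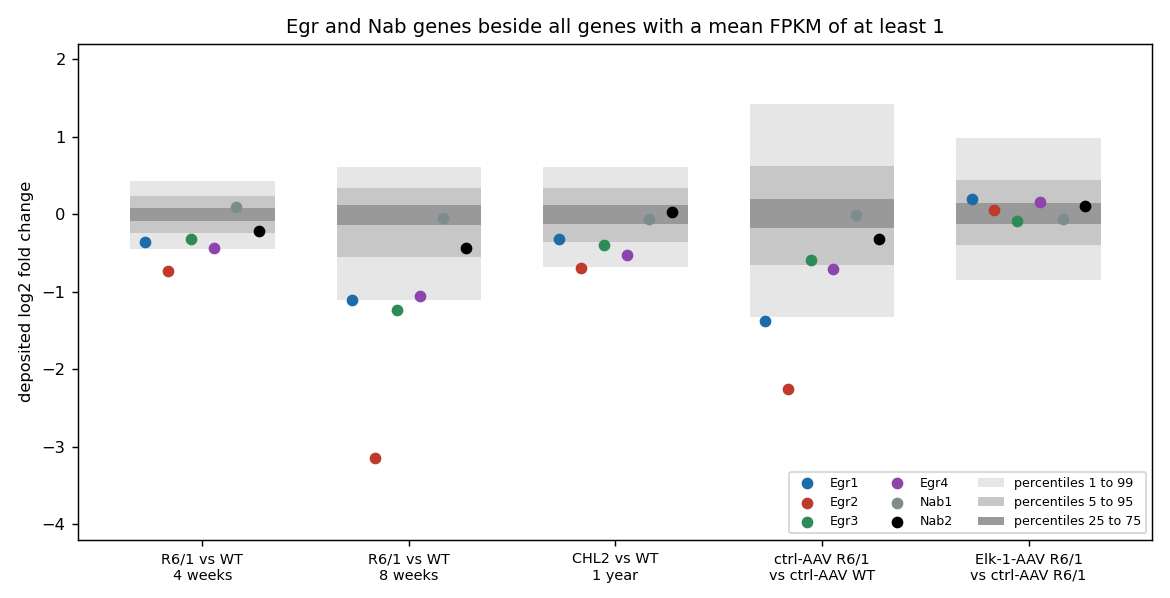
Deposited log2 fold change (y axis) of the 6 genes (points) in each comparison (x axis) over grey bars that span percentiles 1 to 99, 5 to 95 and 25 to 75 of all genes whose mean FPKM was at least 1. At 8 weeks Egr2, at -3.15, lies far below percentile 1 of all genes (-1.11), and Egr1, Egr3 and Egr4 lie near it.

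The comparison of Elk-1 AAV with control AAV in R6/1 mice asked whether more Elk-1, a factor that acts at serum response elements, altered transcription. Elk1 itself rose from 15.1 to 30.1, per the authors' deposited table (q = 0.0122), the lowest q that table holds. Elk1 was not alone at this q, which Trh, Kl, C1qa and C1qb, markers of hypothalamus, choroid plexus and microglia, also had. No Egr or Nab gene was called by Cuffdiff's q, per the authors' deposited table, where 0.575% of 12701 genes were called and 0.299% were called higher. An unadjusted p below 0.05 was held by 0 of the 6 members and by 624 of the 12701 genes. In the authors' deposited table Egr1 went from 68.5 to 78.9 (log2 fold change 0.20, p = 0.227), Egr2 from 1.56 to 1.62 (0.06, p = 0.885), Egr3 from 17.1 to 16.01 (-0.09, p = 0.713) and Egr4 from 24.9 to 27.8 (0.16, p = 0.413). Nab1 stood at 6.70 and 6.45 (p = 0.783) and Nab2 at 19.9 and 21.6 (p = 0.586), per the authors' deposited table. The q of all 6 was 0.999, which does not show that the levels were alike.

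The control-AAV R6/1 group stands in both 10-week tables, and the ratio of its values between them was 1.024 in the median of 12608 genes, with percentiles 1 and 99 at 1.0231 and 1.0245, so the tables differ by a near-constant factor. Divided by that factor, the Elk-1-AAV value was 77.0 for Egr1, beside 66.9 in control-AAV R6/1 and 173 in control-AAV wild type. That is 44.6% of wild type with Elk-1 AAV and 38.7% with control AAV. The same pair of percentages was 21.9% and 21.0% for Egr2, 62.2% and 66.4% for Egr3, 68.9% and 61.6% for Egr4, and 86.9% and 80.3% for Nab2. Both 10-week comparisons share the control-AAV R6/1 group, so a low value there lowers the one change and raises the other.

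The transcripts around the Egr family were read from lists of genes. Of 15 other activity-induced genes, 1 fell at 4 weeks, 12 at 8 weeks, 6 in CHL2 and 11 at 10 weeks. Nr4a3 rose in CHL2, and the list medians were -0.27, -0.88, -0.25 and -1.09, per the authors' deposited tables. Over all genes, 0.468%, 6.12%, 3.65% and 3.24% were called in the same order. Arc, a synaptic effector that Egr factors are reported to drive, fell from 74.96 to 54.6 at 4 weeks (q = 0.0428), from 63.8 to 27.0 at 8 weeks, from 68.8 to 51.6 in CHL2 (q = 0.0163) and from 118 to 36.1 at 10 weeks, per the authors' deposited tables. The nuclear receptor Nr4a1 fell from 55.9 to 24.8 at 8 weeks and from 87.1 to 32.0 at 10 weeks, per the authors' deposited tables. Its relative Nr4a2 fell from 13.5 to 5.75 and the synaptic scaffold Homer1 from 55.2 to 25.3 at 8 weeks, per the authors' deposited table. At 10 weeks the phosphatase Dusp1, from 46.8 to 10.9, and Btg2, from 20.1 to 5.19, had the largest changes of those named by the lowest p, per the authors' deposited table. In CHL2 the activity-induced factor Npas4 fell from 14.2 to 8.05 and Junb from 62.7 to 44.8, per the authors' deposited table. There Ier5 also fell, from 20.2 to 13.8, and Nr4a3 rose from 4.56 to 7.38, per the authors' deposited table.

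Of 22 listed genes of the ERK, ternary complex factor, SRF and CREB pathway, 0 were called at 4 weeks, 3 fell at 8 weeks, 0 were called in CHL2 and 1 fell at 10 weeks by Cuffdiff's q, per the authors' deposited tables. Unadjusted p was below 0.05 for 4 of them at 4 weeks and 3 in CHL2, and for 780 of all 14539 genes and 1911 of all 14402 genes there. Cuffdiff's q called 0.468%, 6.12%, 3.65% and 3.24% of all genes at 4 weeks, at 8 weeks, in CHL2 and at 10 weeks. Dusp6, a phosphatase that ERK induces and that switches ERK off, fell from 25.2 to 13.1 at 8 weeks and from 41.4 to 17.6 at 10 weeks, per the authors' deposited tables. Srf fell from 21.3 to 15.1 and the kinase Rps6ka5 from 16.2 to 9.56 at 8 weeks, per the authors' deposited table. The group FPKM of Elk1 was 20.3 and 21.2 at 4 weeks (q = 0.999), 23.4 and 20.0 at 8 weeks (q = 0.428), 20.4 and 20.7 in CHL2 (q = 0.987) and 17.0 and 14.8 at 10 weeks (q = 0.926), per the authors' deposited tables. Under Elk-1 AAV, 1 of the 22 was called, Elk1, and Srf stood at 17.2 and 20.7 (q = 0.999), per the authors' deposited table. Cuffdiff's q called 0 of the 15 activity-induced genes and 0 of the 15 reported Egr targets there, and 3 and 1 of them had an unadjusted p below 0.05. Such a p was held by 624 of all 12701 genes there.

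**Figure D5:**
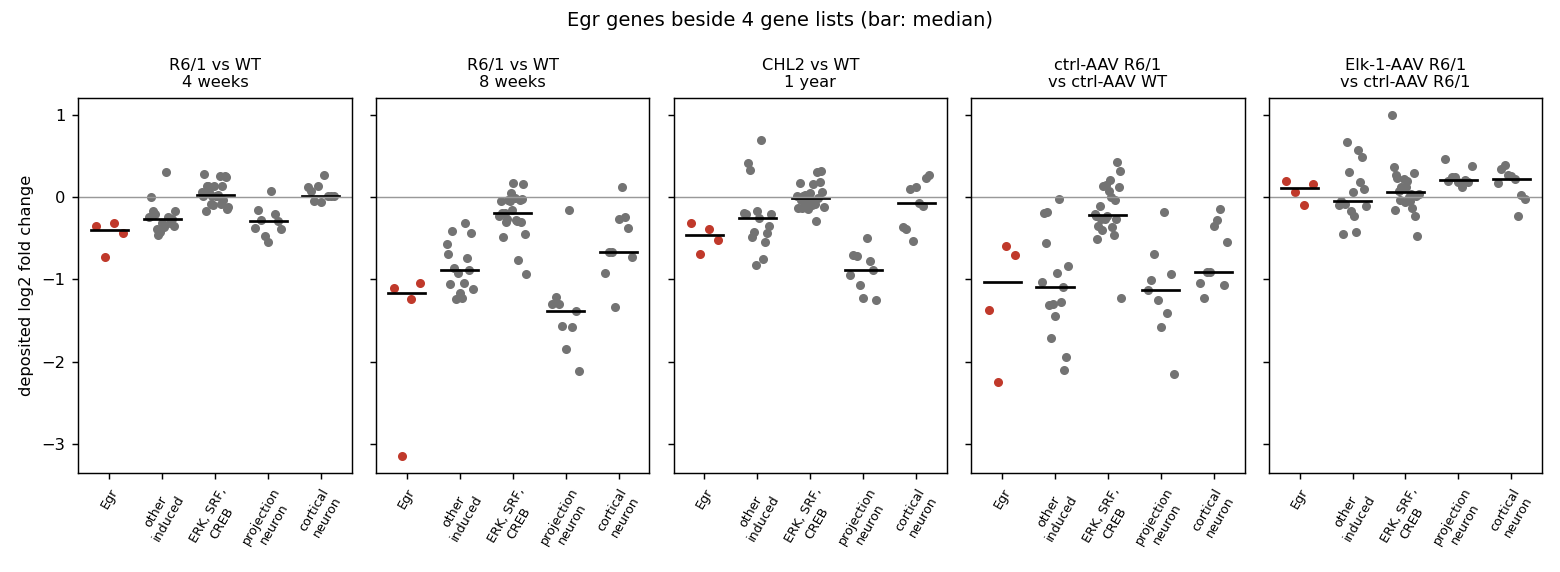
Deposited log2 fold change (y axis) of Egr1 to Egr4 (red) and of 4 gene lists (grey) in each comparison, with a bar at each median. At 8 weeks the medians are -1.17 for the Egr genes, -0.88 for other activity-induced genes, -0.19 for the ERK, SRF and CREB list, -1.38 for projection neuron markers and -0.67 for cortical neuron markers.

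Of 15 listed genes reported elsewhere as Egr targets, 1 fell and 1 rose at 4 weeks. At 8 weeks 4 fell and 1 rose, in CHL2 1 fell and at 10 weeks 2 fell. Over all genes, 0.468%, 6.12%, 3.65% and 3.24% were called in the same order. Arc, also on the activity-induced list, was among those that fell each time and was the only one in CHL2. The list medians were 0.00, -0.11, -0.05 and -0.34, per the authors' deposited tables. Apart from Arc, the serotonin receptor Htr2a rose from 4.65 to 7.42 at 4 weeks (q = 0.0145) and fell from 7.71 to 5.24 at 8 weeks (q = 0.0230), per the authors' deposited tables. The GABA-A receptor subunit Gabra4 fell from 54.1 to 40.8 at 8 weeks (q = 0.0277), and acetylcholinesterase, encoded by Ache, rose from 36.1 to 49.1 (q = 0.0111), per the authors' deposited table. At 10 weeks the immunoproteasome subunit Psmb9 fell from 12.7 to 1.78 (q = 0.0300), per the authors' deposited table. Set side by side, wild-type Psmb9 stood at 1.30 at 4 weeks, 1.65 at 8 weeks and 2.56 at 1 year. The control-AAV wild-type value of 12.7 was the highest of the wild-type values, and R6/1 at 8 weeks stood at 1.71. These levels run across separately normalized tables, ages and AAV states and have no test. Of the 13 subunits of NuRD, a corepressor complex that Nab2 binds through Chd4, 0 were called in any of the 5 comparisons by Cuffdiff's q. An unadjusted p below 0.05 was held by 1, 2, 3, 0 and 0 of them at 4 weeks, at 8 weeks, in CHL2, at 10 weeks and under Elk-1 AAV. Over all genes, in the same order, it was held by 780 of 14539, 2043 of 14320, 1911 of 14402, 1386 of 12980 and 624 of 12701. Of 6 other listed zinc finger factors of GC-rich sites, 2 fell at 8 weeks and 2 at 10 weeks. Klf10 fell from 11.98 to 7.49 and Klf9 from 62.5 to 46.8 (q = 0.0181) at 8 weeks, per the authors' deposited table. Klf10 also fell from 16.9 to 7.64 and Klf9 from 50.7 to 27.9 at 10 weeks, per the authors' deposited table.

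Markers of projection neurons and of neighbouring tissue moved in the same tables as the Egr genes. The summed FPKM of the 9 projection neuron markers in the model was 77.5% of wild type at 4 weeks, 36.8% at 8 weeks, 50.4% in CHL2 and 44.8% at 10 weeks, and 2, 8, 9 and 8 of them fell. Of astrocyte markers 0 of 7 were called in any comparison (at most 1 with an unadjusted p below 0.05), and 3 of 8 oligodendrocyte markers fell in CHL2. Over all genes, 0.468% were called at 4 weeks, 6.12% at 8 weeks, 3.65% in CHL2, 3.24% at 10 weeks and 0.575% under Elk-1 AAV. So 0 calls among 7 genes do not show that astrocyte marker levels were alike. Cortical excitatory neurons also express Egr genes, and of their 9 listed markers 0 were called at 4 weeks, 5 fell at 8 weeks, 0 were called in CHL2 and 5 fell at 10 weeks. Their summed FPKM was 302 and 299 at 4 weeks, 386 and 255 at 8 weeks, 245 and 259 in CHL2 and 749 and 394 at 10 weeks, wild type first, and none of them was at 0 in any group. Choroid plexus markers, 8 listed, fell in 7 cases at 8 weeks (1510 to 583 in sum) and rose in 4 at 10 weeks (342 to 1583), with no marker at 0. These sums, like the others given here, hold all listed markers, called or not. Ttr made up most of the choroid plexus sums. It went from 1455 to 560 at 8 weeks, where it was not called (q = 0.127), and from 333 to 1547 at 10 weeks (q = 0.00312). Hypothalamic and septal markers rose in 7 of 9 cases in CHL2 (82.5 to 198 in sum) and in 6 of 8 at 10 weeks (71.4 to 458), and fell in 4 of 8 at 4 weeks (128 to 58.8). Those sums do not hold the same genes, as Hcrt was not listed at 4 weeks and Otp not at 10 weeks. Within the 10-week sum Hcrt went from 0.246 to 85.8 and was not called (q = 0.825). The part of these markers in the Egr values was not tested. Under Elk-1 AAV the 9 projection neuron markers summed to 1067 and 1305 and the 9 cortical markers to 403 and 497, control AAV first. Of these markers 0 were called, while 0 projection neuron and 2 cortical markers had a lower value with Elk-1 AAV. Their part in the Egr values was not tested either. Hypothalamic markers fell there in 3 of 8 cases (469 to 43.7 in sum). Of microglial markers 2 of 8 rose (222 to 356 in sum), and choroid plexus markers stood at 1621 and 2302 with 1 of 8 higher. Within these sums Pmch (111 to 0.192), Hcrt (87.8 to 0.243) and Ttr (1585 to 2236) were not called (q = 0.999 for each).

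Among 12319 genes whose mean FPKM was at least 1 in every table, the genes whose changes lay nearest to each Egr member were ranked by the root mean square difference of log2 fold changes over the 4 model comparisons, which share no group. Nearest to Egr1 were Itpka, a neuronal inositol kinase (0.0871), Nr4a1 (0.0899) and Pgam2 (0.0993), and 18 genes lay within 0.2 of it. For Egr2 no gene lay within 0.5, and the nearest were 2010001M06Rik (0.563), the sodium channel subunit Scn4b (0.611) and Cpne9 (0.762). Scn4b, a marker of projection neurons, had log2 fold changes of -0.39, -2.12, -1.25 and -2.15 beside -0.73, -3.15, -0.69 and -2.25 for Egr2, per the authors' deposited tables. Nearest to Egr3 were Prima1 (0.112), Pmepa1 (0.122) and Sh3rf2 (0.124), and Egr4 came at rank 5 (0.139). Nearest to Egr4 were Il17rc (0.0679), Epor (0.0712) and Sh3rf2 (0.0959). Not all of these near genes were called: 2010001M06Rik passed in none of the 4 comparisons, and Pgam2, Prima1, Il17rc and Epor passed only at 8 weeks. Egr1 came at rank 44 from Egr2, ahead of Egr3 at 98 and Egr4 at 105. The ranking describes pooled values of 4 tables, gives no test and depends on the measure of likeness.

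The smaller changes depended on how the deposited test was read. In all 5 tables the deposited p-values lay below the two-sided normal p of the deposited test statistic for most genes. The share of genes ran from 95.9% at 10 weeks between the control-AAV groups to 99.6% at 4 weeks, and was 99.1% in CHL2. With that normal p, an alternative chosen after seeing the data, no member was called at 4 weeks or in CHL2, while all 4 Egr genes were still called at 8 weeks and Egr1, Egr2 and Egr4 were called at 10 weeks.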

How the data were processed

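Libraries were made from total striatal RNA with the TruSeq RNA kit, per the labels' protocols. The mm9 genome and, without versions, Cuffdiff, Cufflinks, Bowtie and TopHat are named per the submitters' processing notes. Which annotation was used, and whether counting used strand, is not stated there. For each of 5 comparisons the authors deposited a table with pooled group FPKM values, the deposited log2 fold change of those values, their test statistic (a score with no fixed range), and a p-value with its q-value. The lowest p-value is 5e-05. Depth and spread per library are unknown, and no interval was computed from the deposited statistic, whose normal p differs from the deposited p. The limma fit foreseen for values per library was therefore not run, and calls are the authors' q below 0.05 over the whole table. Ranks, sums and ratios were computed from the group values with Python 3.11.15 and pandas 2.3.3. Percentiles and ranks used genes whose mean FPKM was at least 1, without microRNA and small nucleolar RNA rows.

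The members and the lists were chosen with earlier results of these data known, and the lists include genes known from textbooks to act upstream or downstream of Egr factors. The members are named throughout. Listed genes are named where called, at most 4 per list and comparison by lowest p and then largest change, with Elk1 and Srf always named, and the 3 nearest genes are named for each Egr member. Hras, Mmp9 and Wt1 are not listed under these symbols and were not analysed here. Motifs were searched in RefSeq promoter windows of GRCm38.p6, matched for 4 of 6 members by symbol. Exon numbers, lengths and overlaps come from GENCODE M21 on GRCm38, positions from the tables on mm9. Whether those starts count from 0 or 1 is not stated. Of the projection neuron markers, 1 is not reported here and was left out of their sums and counts. A comparison of the member proteins was not made. The adjustment, the likeness ranking and the motif search were tested on simulated data. Alternatives were other q thresholds, an adjustment over expressed genes, pseudocounts, scalings, other measures of likeness and, added after seeing the data, a normal p of the deposited statistic.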

Additional observations from a re-analysis of the deposited data

How the results depend on the processing

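The number of members called was 1 at 4 weeks, 4 at 8 weeks, 3 in CHL2, 2 at 10 weeks and 0 under Elk-1 AAV. At 4 weeks it was 0 with q below 0.01, where no gene of the table passes, 2 with q below 0.1 and 2 when p-values were adjusted over genes whose mean FPKM was at least 1. With a normal p of the deposited statistic, an alternative chosen after seeing the data, it was 0 at 4 weeks and 0 in CHL2. Under the other settings the counts stayed within 1.5 times. The genes called over the 5 lists numbered 2, 21, 7, 15 and 1. With the normal p they numbered 0 at 4 weeks, 8 at 8 weeks, 0 in CHL2 and 0 under Elk-1 AAV. With q below 0.01 they numbered 0 at 4 weeks, 4 in CHL2 and 0 under Elk-1 AAV, and with q below 0.1 they numbered 2 under Elk-1 AAV. The normal p called fewer genes in every table (13 at 4 weeks, 173 at 8 weeks, 59 in CHL2, 166 at 10 weeks and 43 under Elk-1 AAV).

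Of 120 log2 fold changes recomputed with pseudocounts of 1 and 0.1, centred on the median of expressed genes or rescaled without small RNA rows, 117 kept their sign. The exceptions were Nab1 under the rescaling, at 0.04 at 8 weeks, 0.02 in CHL2 and 0.05 at 10 weeks. Sizes could shrink where the sign was kept. With a pseudocount of 1, Egr2 went from -0.73 to -0.61 at 4 weeks and from -3.15 to -2.31 at 8 weeks. It went from -0.69 to -0.55 in CHL2 and from -2.25 to -1.71 at 10 weeks. Of the 12 nearest genes, 6 were found again with a mean FPKM of at least 5 and 0 with Pearson correlation of levels over 9 groups, which also follows differences between tables. The motif matches, 10 in number, all lay before the start. Leaving out a library was not possible with pooled values. No paired analysis was possible because the files hold 1 pooled value per group and no value per library.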
